A study of Mus musculus with 45 samples.

Results

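The neighbouring genes Birc2, Birc3 and Yap1 on proximal chromosome 9 were followed through array comparative genomic hybridization of 45 mouse mammary tumors. The array carried 5 probes with these names, 3 for Birc3 and 2 for Yap1, among 42235 probes on the autosomes and chromosome X, and 0 probes with the name Birc2. A further 2 probes named AK021182 carried in their description a clone that RefSeq lists under Birc2, and they are given separately. The flanking probes up to 12 Mb (102 probes on chromosome 9, of which 97 have other names or none) were used to place the borders of any gain. Coordinates refer to mm8, as in the files, which do not say in which part of a gene a probe lies.

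DNA of each tumor and reference DNA, in different dyes, shared an Agilent oligonucleotide array to find regions with more or fewer copies than normal DNA. The labels name pooled spleen as the reference source, while the characteristics of that channel speak of normal mammary gland. Each tumor of a model counted as a replicate, so the p-values below measure the spread between these tumors. The arrays came from 18 slides and 10 scan dates.

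The tumors came from female mice of 8 models. In MMTV-c-Myc (n = 5), MMTV-Her2/neu (n = 5), MMTV-H-Ras (n = 5), MMTV-PyMT (n = 9) and MMTV-Wnt1 (n = 5), the MMTV promoter, active in mammary epithelium and in some other tissues, drives the named oncogene. The C3(1)/SV40 T/t-antigens model (n = 5) expresses viral T antigens from the C3(1) promoter. In BRCA1fl/fl;p53+/-;MMTV-cre (n = 5), called the BRCA1 model below, cre deletes a floxed Brca1 in mice with 1 intact p53 allele. In p53fl/fl;MMTV-cre transplant (n = 6), called the p53 transplants below, it deletes floxed p53, with tumors grown as transplants. The labels give neither ages nor strains for the tumors. DNA came from whole tumors, in which the share of cells that carry a gain and the number of copies in those cells cannot be told apart.

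Birc2 and Birc3 encode cellular inhibitor of apoptosis proteins, ubiquitin ligases that act at the tumor necrosis factor receptor and restrain the noncanonical NF-kappaB pathway. Yap1 encodes the transcriptional coactivator at the end of the Hippo pathway. In that pathway the Mst kinases act through the Lats kinases, which phosphorylate the Yap1 protein and hold it in the cytoplasm. In the nucleus it works with TEAD factors. The matching region of human chromosome 11 is known to be amplified in several carcinomas, with YAP1, BIRC2 and BIRC3 inside it.

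The log2 ratios below are Cy3 over Cy5, read as tumor over reference and centred on each array's autosomal median. This runs against the labels, which give Cy5 to the tumor. The direction follows the authors' table of intervals, in which 740 of 755 intervals (98.0%) had the sign of the Cy3 over Cy5 ratio, leaving aside those of fewer than 3 probes or of a mean within 0.2 of 0. This choice was made after the values were seen. With the dyes as labelled, each gain described here is a loss of the same size. The median signal of an array was 2.09 to 14.4 times its background in Cy5 and 3.67 to 16.7 times in Cy3. The SD of a single probe ran from 0.159 to 0.476 in log2 units, and precision is limited by how many arrays there are.

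The locus was strongly amplified in Wnt_4635 alone, 1 of 45 (2.22%, with a 95% interval of 0.0562 to 11.8% by the exact Clopper-Pearson method), where amplified means a mean log2 ratio of at least 1 over the 5 named probes. The mean there was 2.52, and in the other 44 tumors it ran from -0.40 in C3TAg_8_RPT to 0.23 in P53_8546, with a median of -0.01. The 3 Birc3 probes stood at 2.50, 2.49 and 2.65 in Wnt_4635, and the Yap1 probes at 2.55 and 2.43. As linear ratios these are 5.39 to 6.26 times the reference, set against the array median. With normexp background correction the mean in Wnt_4635 was 0.43 and its excess over the rest of chromosome 9 was 0.45, still the highest mean of the 45 tumors but no longer an amplification by this definition. No spot of the 7 probes was flagged as an outlier or fell short of being well above background, and 0 of the 104 proximal spots of this array were saturated.

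The probes of AK021182 stood at 2.22 and 2.75 in the same tumor. In the other 44 tumors these 2 probes reached 1.09 in P53_5809 and 0.94 in PyMT_11567. Their mean was 2.48 in Wnt_4635 and at most 0.48 elsewhere, the latter in P53_2979. Of all autosomal gene names, 0.343% had a mean of at least 1 in Wnt_4635, and 18.4% reached it in at least 1 of the 45 tumors.

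Wnt_4635 is labelled MMTV-Wnt1, and that label is in doubt. The probe named Wnt1 (chromosome 15, 98621829 to 98621888) had a log2 ratio of 0.07 in it, against 1.31 ± 0.18 (SD, n = 4) in the other MMTV-Wnt1 tumors, with a lowest value of 1.07. Over 1 Mb bins its profile was most like that of Brca_54, with a Pearson r of 0.28, while each of the other 4 had an r of at least 0.40 with its nearest tumor. That nearest tumor was an MMTV-Wnt1 tumor of the same slide for Wnt_4675, Wnt_4676 and Wnt_4677, but PyMT_11570 (r = 0.69), also of the same slide, for Wnt_4679. A stretch of chromosome 4 with a mean of 4.09 in Wnt_4635 (111570716 to 111955475) overlapped one of Wnt_4679 (111634766 to 111955475) with a mean of 4.90. Wnt_4635 was also the sole array of its slide and the sole array of its scan date, so that tumor, slide and date cannot be told apart. The values within its array, where the locus is set against its own chromosome, do not involve another array.

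**Figure D1:**
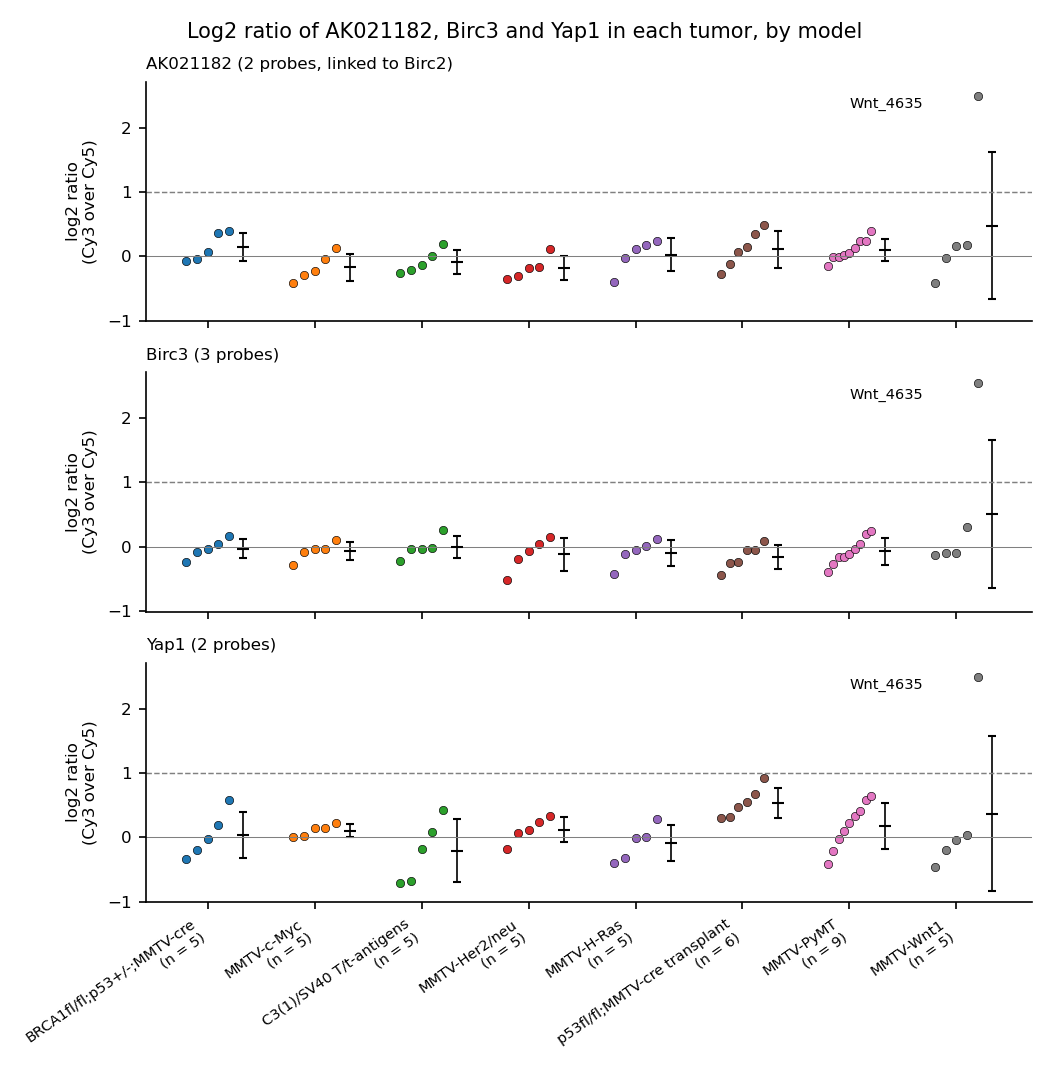
Each point is the mean log2 ratio (Cy3 over Cy5) of a gene's probes in 1 tumor, sorted by value within its model, with the mean and SD of the model beside the points. The dashed line marks a log2 ratio of 1, which Wnt_4635 alone passed, at 2.48 for AK021182, 2.55 for Birc3 and 2.49 for Yap1.

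Birc3 was at 2.55, -0.09, -0.09, -0.13 and 0.31 in the MMTV-Wnt1 tumors, in the order Wnt_4635, Wnt_4675, Wnt_4676, Wnt_4677 and Wnt_4679. Yap1 was at 2.49, 0.03, -0.20, -0.04 and -0.46 in the same order. Apart from Wnt_4635, the MMTV-Wnt1 tumors lay inside the range of the other models for Yap1, and for Birc3 Wnt_4679 lay just above it. The mean over the 5 named probes was 0.45 ± 1.16 (SD, n = 5) in the model and -0.07 ± 0.06 (SD, n = 4) without Wnt_4635.

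In the p53 transplants Birc3 ran from -0.44 to 0.08 with a median of -0.15 (n = 6), and Yap1 from 0.30 to 0.91 with a median of 0.51. Yap1 stood above Birc3 in 6 of 6 tumors, by 0.22 to 1.15. In the MMTV-PyMT tumors Birc3 ran from -0.39 to 0.25 with a median of -0.12 (n = 9), and Yap1 from -0.42 to 0.65 with a median of 0.22. Yap1 stood above Birc3 in 7 of 9 of them, and the ranges of the 2 models overlap for both genes. The same order held in 5 of 5 MMTV-c-Myc tumors, by 0.03 to 0.42, in 4 of 5 MMTV-Her2/neu tumors, in 3 of 5 each of the BRCA1 model and MMTV-H-Ras, and in 2 of 5 each of C3(1)/SV40 T/t-antigens and MMTV-Wnt1.

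In the MMTV-c-Myc tumors Birc3 was at -0.28, -0.03, -0.04, -0.08 and 0.10. Yap1 was at 0.14, -0.00, 0.22, 0.02 and 0.15 in the same tumors. No other model had so small an SD for Yap1, 0.09 (n = 5).

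In the MMTV-Her2/neu tumors Birc3 was at 0.05, 0.14, -0.20, -0.07 and -0.51, the last in H2NA. Yap1 was at 0.33, 0.23, 0.12, -0.18 and 0.07 in the same order. H2NA had the lowest Birc3 value of all 45 tumors, and its chromosome 9 beyond 12 Mb was also low, at -0.41.

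In the C3(1)/SV40 T/t-antigens tumors Birc3 was at -0.02, -0.03, 0.26, -0.03 and -0.22. Yap1 was at 0.43, 0.08, -0.18, -0.70 and -0.68, so that C3TAg_7RPT and C3TAg_8_RPT had the lowest Yap1 values of the study. C3TAg_5RPT and C3TAg_7RPT had nearly the same genome-wide profiles as H2N53 (r = 0.96) and H2N61 (r = 0.93), tumors labelled MMTV-Her2/neu. Yap1 nevertheless read -0.70 in C3TAg_7RPT and 0.12 in H2N61. Leaving out these 4 arrays left the counts of gained and amplified tumors at 2 and 1.

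In the MMTV-H-Ras tumors Birc3 was at -0.05, 0.11, 0.00, -0.42 and -0.12. Yap1 was at -0.40, 0.28, 0.01, -0.01 and -0.33. In the tumors of the BRCA1 model Birc3 was at 0.17, 0.03, -0.23, -0.04 and -0.09, and Yap1 at -0.20, -0.34, 0.19, 0.57 and -0.03. In both models each gene had values on either side of 0.

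The mean over the 5 named probes was highest in MMTV-Wnt1, followed by 0.12 ± 0.13 (SD, n = 6) in the p53 transplants, 0.03 ± 0.14 (SD, n = 9) in MMTV-PyMT and 0.00 ± 0.09 (SD, n = 5) in MMTV-c-Myc. The BRCA1 model (0.00 ± 0.13), MMTV-Her2/neu (-0.03 ± 0.19), C3(1)/SV40 T/t-antigens (-0.09 ± 0.25) and MMTV-H-Ras (-0.09 ± 0.18) came after, each over 5 tumors. Each neighbouring pair in this order differed by less than the SD of either model, except that MMTV-Wnt1 and the p53 transplants differed by more than the SD of the latter. Without Wnt_4635, MMTV-Wnt1 fell between MMTV-Her2/neu and C3(1)/SV40 T/t-antigens. With normexp the order was also lost, with MMTV-Wnt1 at 0.025 and both the p53 transplants and MMTV-PyMT at 0.030.

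limma was fitted to each of 40666 autosomal probes, with Benjamini-Hochberg adjustment over all of them. The moderated F test over the 8 models called 0 of the 5 named probes at an adjusted p of 0.05, against 19% of all autosomal probes. The lowest value among the members was that of the first Birc3 probe (7851652 to 7851711), with an adjusted p of 0.0585. Against the mean of the other 7 models, 0 of 5 named probes were called in each of the 8 models. At an unadjusted p of 0.05, 3 of 5 passed in MMTV-Wnt1, 1 of 5 each in the p53 transplants, MMTV-H-Ras and C3(1)/SV40 T/t-antigens, and 0 of 5 in the other 4. The share of all probes at this unadjusted p was not taken, so these counts have no background beside them. After adjustment, 0.0639% of all autosomal probes were called in MMTV-Wnt1 (0.0443% higher and 0.0197% lower) and 16.6% in the p53 transplants (9.06% and 7.51%). It was 3.3% in MMTV-H-Ras (1.95% and 1.36%) and 0.00246% in C3(1)/SV40 T/t-antigens, where the single probe was lower. In the others it was 5.29% in the BRCA1 model (2.29% higher and 3% lower), 0.531% in MMTV-c-Myc (0.472% and 0.059%), 0.113% in MMTV-PyMT (0.106% and 0.00738%) and 0.00492% in MMTV-Her2/neu, where both probes were lower.

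The first Birc3 probe was the nearest to a call in MMTV-Wnt1. It read 2.50, 0.18, 0.28, 0.21 and 0.60 in the 5 tumors, with a mean of 0.75 against -0.03 in the other models, a difference of 0.79 (SE 0.18, limma, adjusted p = 0.0611). Without Wnt_4635 the difference was 0.35 (SE 0.12, limma, adjusted p = 0.163). The other Birc3 probes both read below 0 in 3 of these 4 tumors, where the first read above 0. With array weights, which count noisy arrays for less, 1 named probe was called in MMTV-Wnt1. The F test then also called more of all autosomal probes.

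The first Yap1 probe (7932836 to 7932895) was the nearest to a call in the p53 transplants. It read 0.24 to 1.32 in the 6 tumors, with a mean of 0.73 against 0.03 in the other models, a difference of 0.70 (SE 0.25, limma, adjusted p = 0.0512). Without Wnt_4635, with the mean of the other models at -0.05, the difference was 0.78 (SE 0.19, limma, adjusted p = 0.00449), and the probe was called. With Wnt_4635 kept, the difference was 0.70 (limma, adjusted p = 0.104) with slide as a random block. With scan date it was 0.52 (limma, adjusted p = 0.173) as a random block. It was 0.39 (limma, adjusted p = 0.269) with scan date as a fixed block over 7 models (the BRCA1 arrays, on scan dates of their own, left out). No fit with a random block left out Wnt_4635. The second Yap1 probe read 0.09 to 0.51 in these tumors. The first AK021182 probe differed by 0.42 in the p53 transplants (SE 0.20, limma, adjusted p = 0.152), and by 0.48 (SE 0.16, limma, adjusted p = 0.0369) without Wnt_4635, where it was called. With Wnt_4635 kept, it was not called with slide (0.41, limma, adjusted p = 0.255) or scan date (0.33, limma, adjusted p = 0.308) as a random block. Nor was it with scan date as a fixed block over the 7 models (0.29, limma, adjusted p = 0.396). The second AK021182 probe had a difference of -0.29 (limma, adjusted p = 0.414), so that the 2 probes differed in sign. The segments that cover Yap1 had means of -0.21 to 0.30 in them, and no segment began or ended at Yap1.

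Among the 102 probes of proximal chromosome 9, 6 were called higher in the p53 transplants, where 9.06% of all autosomal probes were called higher. Of these, 3 were probes of Kbtbd3, Casp1 and Dync2h1. With slide as a random block all 3 were called, while with scan date as a random block Dync2h1 was not (0.66, SE 0.24, limma, adjusted p = 0.0735). The other 3 were not followed under a block. In the BRCA1 model 4 of 102 were called lower, with 3% of all autosomal probes called lower. These 4 were not followed under a block either, and the arrays of that model shared their scan dates with no other model. The other 6 models, MMTV-Wnt1 among them, had 0 of 102 called in either direction.

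Segmentation divided each chromosome at changes of level, and segments whose mean reached 0.2 were taken as gains. A gain covered the locus in Wnt_4635 and P53_5809, that is 2 of 45 (4.44%, with a 95% interval of 0.543 to 15.1% by the exact Clopper-Pearson method), while 82.3% of autosomal probes were gained in at least 2 of 45 tumors. By the authors' own intervals at the same threshold 6 tumors were gained there. Beside Wnt_4635 these were Brca_54, C3TAg_5RPT, Hras_An1_3, P53_5809 and P53_8546, each in an interval over nearly the whole chromosome with a mean of 0.34 to 0.54. The segment of P53_5809 had a mean of 0.30, ran from the first probe of the chromosome and held 348 probes. Its 5 named probes had a mean of 0.23, with Birc3 at -0.23 and Yap1 at 0.91. Hras_An1_3 lay just under the threshold, with a segment mean of 0.196 over 2452 probes. A segment with a mean of -0.2 or lower covered the locus in 4 of 45 tumors, H2NA at -0.40, C3TAg_8_RPT at -0.29, Brca_14 at -0.23 and P53_1573 at -0.21, while 58.9% of autosomal probes lay in such segments in at least 4 of 45 tumors.

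In each of the 44 tumors other than Wnt_4635, a single segment ran from the first probe of chromosome 9 past the whole proximal region. Its end lay between 20338339 and the end of the chromosome, and it held at least 248 probes. In Wnt_4635, 8 segments began in the same stretch. Over the 44 tumors the mean of the 5 named probes followed the median of chromosome 9 beyond 12 Mb, with a Pearson r of 0.68 and a Spearman rho of 0.68 as a description (the points share arrays, centring and dyes). For Birc3 alone r was 0.57, for Yap1 alone 0.31, and for the mean of the matrix metalloproteinase genes nearby 0.86. Birc3 and Yap1 did not follow each other over these tumors (r = -0.25), with the first probe of each at r = -0.50.

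The locus stood above the rest of its chromosome by 2.67 in Wnt_4635, where chromosome 9 beyond 12 Mb had a median of -0.15. The same excess was 0.03 ± 0.12 (SD, n = 44) in the other tumors, from -0.17 in C3TAg_7RPT to 0.24 in Brca_42. The excess of Wnt_4635 lies outside this range.

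**Figure D2:**
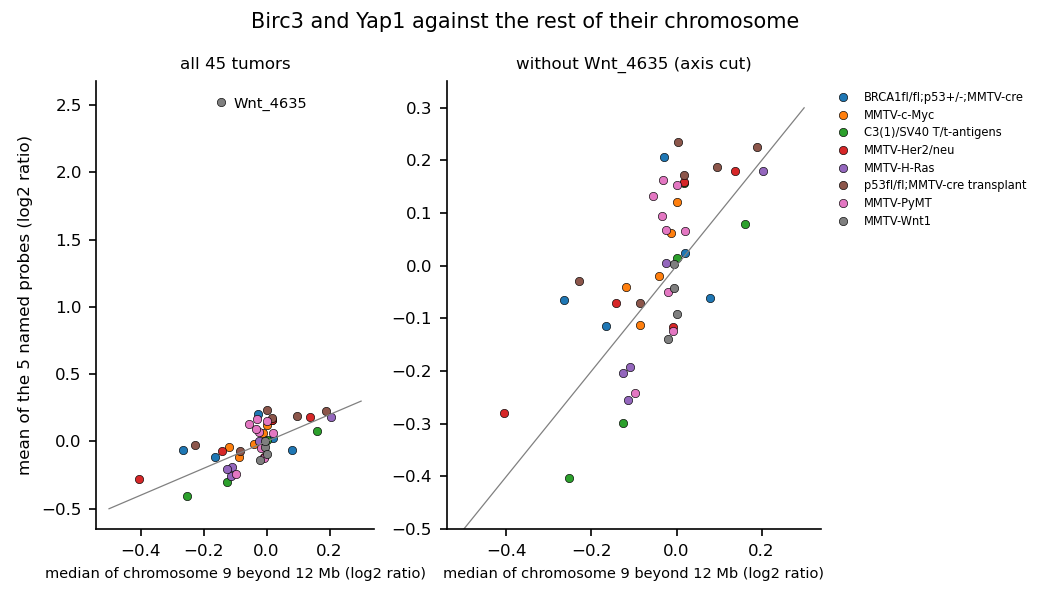
The mean log2 ratio of the 5 named probes of Birc3 and Yap1 is plotted against the median log2 ratio of chromosome 9 beyond 12 Mb, 1 point per tumor, coloured by model, with the line of equal values. The left panel holds all 45 tumors, with Wnt_4635 at 2.52 and -0.15, and the right panel shows the other 44 on a cut axis, where the points follow the line with a Pearson r of 0.68.

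The amplified region of Wnt_4635 had a stepped shape. Its 5 steps with means of at least 1 together ran from 6206468 to 8662583, a length of 2.46 Mb with 60 probes. With the shallower steps on either side, the gained region ran from 4973193 to 13534133, a length of 8.56 Mb. Of the autosomal probes of this array, 24.3% lay in segments with a mean of at least 0.2. Shallow steps of 0.44, 0.52 and 0.36 also stood further along chromosome 9, from 20556162, 30960283 and 39159483. Whether the shallower steps beside the amplified region belong to it was not tested. The 60 probes are those of segments chosen for their height in this tumor, so that their height there is no further result. As single probes, 12 of the 60 reached 1 in some other tumor.

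Birc3 and Yap1 were not at the top of it. The highest step, from 7158891 to 7565658, had a mean of 3.74 over 23 probes, a linear ratio of 13.4. With normexp the mean of the matrix metalloproteinase genes of the region fell from 3.60 to 1.34 in this tumor. The step held the end of Dync2h1, Dcun1d5, Mmp13, Mmp12, Mmp1b, Mmp3, Mmp1a, Mmp10 and Mmp8. The step with Birc3 and Yap1, from 7654699 to 8121056, had a mean of 2.58 over 18 probes, a linear ratio of 5.97. The lowest of the 23 probes read 3.18 and the highest of the 18 read 2.90, so that the values of the 2 steps did not overlap. The drop between them, 1.17 on the log2 scale, lay in the 89.0 kb between the last Mmp8 probe at 3.83 and the first Mmp20 probe at 2.27.

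The genes of the highest step encode mostly matrix metalloproteinases, enzymes that cut proteins of the extracellular matrix. Mmp12, the macrophage elastase, had the highest gene mean at 3.96, followed by the collagenase Mmp13 at 3.90 and the neutrophil collagenase Mmp8 at 3.89. Mmp10 stood at 3.87, Mmp1a at 3.79, Mmp1b at 3.78 and the stromelysin Mmp3 at 3.54. Dcun1d5, which belongs to a family of cullin neddylation factors, stood at 3.49. These means differ by less than the range of single probes within the step, so that no order among them is drawn. The 9 metalloproteinase genes measured from the list are neighbours within the amplified block, so their values describe that block. All 9 had a mean of at least 1 in Wnt_4635 and in no other tumor, where 0.343% of autosomal gene names reached 1 in Wnt_4635 and 18.4% in at least 1 of the 45 tumors.

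Within the step of Birc3 and Yap1, Mmp20, an enzyme of tooth enamel, stood at 2.46 and Mmp7 (matrilysin) at 2.87 on its single probe. AK021182 followed at 2.48, Birc3 at 2.55, Yap1 at 2.49, 9230110C19Rik (Cfap300 in RefSeq) at 2.53 and AK129341 (Cep126) at 2.65. The 18 probes of this step had an SD of 0.21 around their mean, and the single-probe SD of the array was 0.159. The means of Birc3 and Yap1 differed by less than that.

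Towards the centromere the level fell to 2.23 from 6983399 to 7132145, inside Dync2h1, a dynein heavy chain of cilia. The rise from 2.45 to 3.80 between neighbouring Dync2h1 probes, 26.7 kb apart, placed a border inside that gene. Further out the level was 1.66 from 6206468 to 6957527, with the last 3 of 4 Pdgfd probes at 1.44 to 1.61 and AK043230 at 1.56. Pdgfd, a ligand of the platelet-derived growth factor receptor, was itself crossed by a border, with its first probe at 0.50 and the next, 37.5 kb on, at 1.44. Beyond it the caspase genes Casp1 (0.29), Casp4 (0.46) and Casp12 (0.28) lay in a shallow step of 0.46 over 11 probes, and Gria4, outside the gain, was at -0.03.

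Away from the centromere the level fell to 2.11 from 8225749 to 8662583, a step of 6 probes with 1700128F08Rik at 2.39, AK086296 at 2.24, the cation channel gene Trpc6 at 1.99 and AK054106 at 1.87. The probe values of this step overlapped those of the step with Birc3 and Yap1, 1.80 to 2.65 against 2.22 to 2.90. The amplified region ended between AK054106 and an unnamed probe 111 kb on at 0.14. Pgr, the progesterone receptor gene, lay past this border with a mean of 0.64 on 2 probes, and no other tumor had so high a value, the highest being 0.32 in C3TAg_5RPT. Of autosomal gene names, 1.03% were likewise higher in Wnt_4635 than in each of the other 44 tumors. The step of Pgr, from 8773720 to 13534133, had a mean of 0.42 over 23 probes, but the 2 probes of AK138164 within it had a mean of -0.05.

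**Figure D3:**
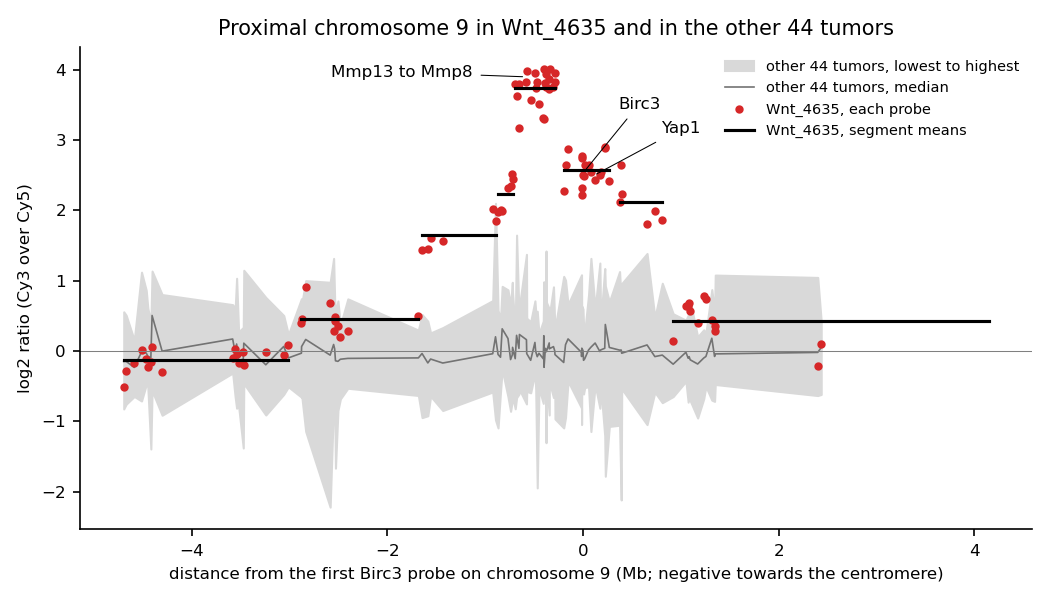
Log2 ratio (Cy3 over Cy5) of each proximal chromosome 9 probe against its distance from the first Birc3 probe, in Mb. Red points are Wnt_4635, black lines its segment means (the last is drawn to 12 Mb), the grey band runs from the lowest to the highest of the other 44 tumors and the grey line is their median. The values of Wnt_4635 climb in steps to 3.74 over the Mmp13 to Mmp8 genes, stand at 2.58 over Birc3 and Yap1 and fall back to 0.42.

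Of the named genes and transcripts in the region, 22 had a mean of at least 1 in Wnt_4635. RefSeq symbols were found for 19 of the 22. RefSeq also places the protein-coding genes Ddi1, Mmp27 and Tmem123 and 2 microRNA genes between amplified probes, though no probe carries those names. They are Mir5618, next to Birc2 on its centromeric side, and Mir1899, between 1700128F08Rik and Trpc6. Their mature RNAs, from RefSeq with GRCm38.p6, are shown because by gene order they lie between amplified probes, which do not measure them. The seed, bases 2 to 8, is in capitals, and no seed is shared:
mmu-miR-5618-5p: uACCCUUUacaccguguagu
mmu-miR-5618-3p: cUAUACCAuguaaagggu
mmu-miR-1899: aGCGAUGGccgaaucugcuucc

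**Figure D4:**
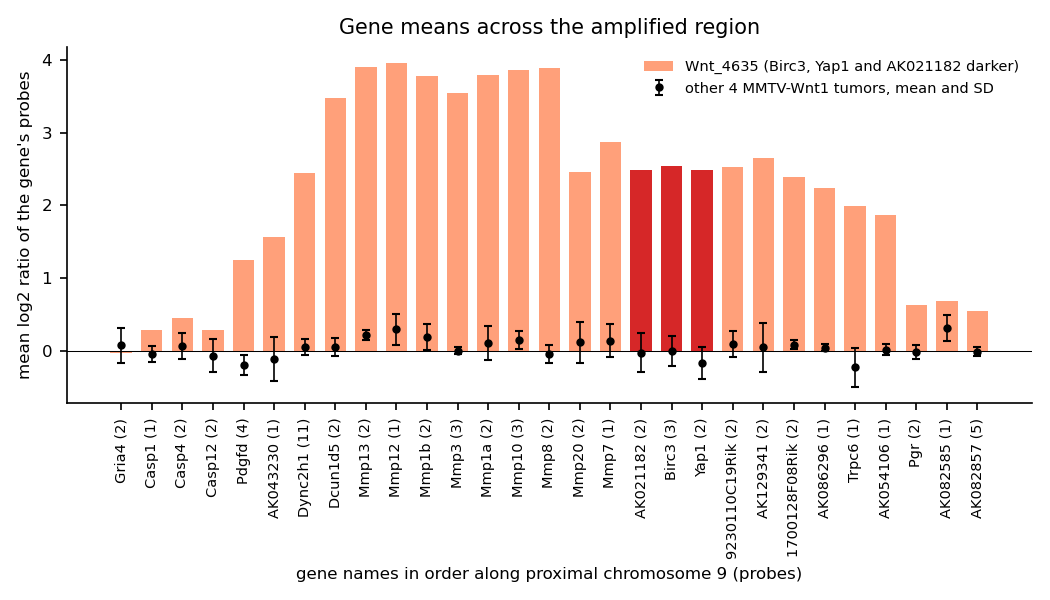
Bars give the mean log2 ratio of each gene's probes in Wnt_4635, in order along proximal chromosome 9 with the number of probes in parentheses, and points give the mean and SD of the other 4 MMTV-Wnt1 tumors. The bars of AK021182 (2.48), Birc3 (2.55) and Yap1 (2.49) are darker, and the bars from Dcun1d5 to Mmp8 are higher than these while the means of the other 4 tumors lie near 0.

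Wnt_4635 held 16 segments with a mean of at least 1, on 8 chromosomes, and 5 of them made up the region of Birc3 and Yap1, with 60 of the 150 probes. Such segments took up 0.369% of its autosomal probes. The Mmp step was the second highest of the 16, after a segment of 9 probes on chromosome 4 at 4.09. Over all tumors, 7.03% of autosomal probes lay in a segment with a mean of at least 1 in at least 1 tumor, and 1.63% in one with a mean of at least 2. Among the 7134 autosomal segments of the study the Mmp step ranked 24 and the step of Birc3 and Yap1 ranked 71 by mean.

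Of 22 measured genes of the Hippo pathway list, Yap1 alone had a mean of at least 1 in Wnt_4635, as did 0.343% of all autosomal gene names, and the median of the list there was -0.07 against -0.01 over all gene names. Wwtr1, the paralog of Yap1, stood at 0.55 in that tumor, and Tead1 at -0.08 and Lats2 at -0.07. With Yap1, 7 of the 22 genes reached 1 in at least 1 of the 45 tumors, where 18.4% of all autosomal gene names did so. Tead4, a DNA-binding partner of Yap1 with 1 probe, reached it in Brca_54 (1.47), C3TAg_7RPT (1.54) and H2N61 (1.72), of which the last 2 had nearly the same profile. Ankrd1, a transcriptional target, reached 1.66 in Brca_54 and 1.04 in P53_1573 on its single probe. The upstream regulator Nf2 reached 1.27 in P53_2979 and 1.28 in PyMt342. Vgll4, which competes with Yap1 for TEAD factors, reached 1.23 in Hras_An3_3, Limd1 1.16 in P53_5809 and Lats2 1.03 in P53_2979.

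By limma, 2 Hippo genes had a probe called higher in the BRCA1 model, Fat4 by 2.16 (SE 0.31, adjusted p = 5.15e-06) and Ankrd1 by 0.99 (SE 0.15, adjusted p = 2.15e-05). In the p53 transplants 3 genes had a probe called higher (Tead1, Limd1 and Nf2) and 5 a probe called lower (Fat4, Nf2, Sav1, Frmd6 and Tead3). The probes of Nf2 went both ways there, 1.03 higher and 0.37 lower on the log2 scale. Amotl2 and Wwtr1 were called lower in MMTV-H-Ras. In MMTV-c-Myc the same Fat4 probe that was higher in the BRCA1 model was called lower, with a difference of -1.53. The Fat4 probes called in the p53 transplants were others, at -0.29 and -0.28, and over all its probes Fat4 reached a mean of 1 in no tumor. In the other 4 models, MMTV-Wnt1 among them, 0 of 22 were called. Each of these calls is that of 1 probe of the 46 on the list, other than Fat4 in the p53 transplants with 2 probes. Of all autosomal probes, 2.29% were called higher in the BRCA1 model, 9.06% higher and 7.51% lower in the p53 transplants, 1.36% lower in MMTV-H-Ras and 0.059% lower in MMTV-c-Myc.

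These calls come from the fit without a block, and slides and scan dates were spread unevenly over the models. The arrays of the BRCA1 model shared their scan dates with no other model, so that model and date cannot be told apart there. Of the 14 Hippo calls, 7 remained with slide as a random block and 8 with scan date as a random block. In the BRCA1 model Fat4 had a difference of 2.04 (SE 0.34, limma, adjusted p = 0.000129) with slide and 2.07 (SE 0.38, limma, adjusted p = 0.000782) with scan date as the block. Ankrd1 had 0.96 (SE 0.17, limma, adjusted p = 0.000297) and 1.00 (SE 0.19, limma, adjusted p = 0.00111). The call of Fat4 in MMTV-c-Myc and those of Tead1, Frmd6, Tead3 and the lower Nf2 probe in the p53 transplants remained under both blocks, and Sav1 only with scan date. Limd1, the higher Nf2 probe and both Fat4 probes in the p53 transplants, and Wwtr1 and Amotl2 in MMTV-H-Ras, were called under neither block.

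Of 23 measured genes of the inhibitor of apoptosis family and its partners, Birc3 alone reached 1 in Wnt_4635, where the list had a median of 0.07 against -0.01 over all autosomal gene names and 0.343% of those names reached 1. In any of the 45 tumors 3 of 23 did, against 18.4% of all autosomal names. Birc5, which encodes survivin and lies on chromosome 11, was at 0.61 in that tumor and reached 2.49 in C Myc_04004021 and 1.90 in C Myc_04005648 on its single probe. By limma it was higher in MMTV-c-Myc, with a mean of 1.30 against 0.06 in the other models (difference 1.24, SE 0.18, adjusted p = 0.000171). Traf2, which recruits these proteins to the receptor, reached 1.00 in Brcap53_682. The ligase's kinase target Map3k14 was called higher in the BRCA1 model by 0.37 and lower in the p53 transplants by 0.28 on the log2 scale. The antagonist Diablo was called higher in the p53 transplants, by 0.65 (SE 0.15, adjusted p = 0.0036). In all, 3 genes were called higher and 2 lower in the BRCA1 model, 3 higher and 1 lower in the p53 transplants, and 1 higher each in MMTV-c-Myc and MMTV-H-Ras. These counts stand beside 2.29% of all autosomal probes called higher and 3% lower in the BRCA1 model, 9.06% and 7.51% in the p53 transplants, 0.472% higher in MMTV-c-Myc and 1.95% higher in MMTV-H-Ras. Of the 12 probes behind these calls, 5 were called with slide and 4 with scan date as a random block. Birc5 (difference 1.20 with each, limma, adjusted p = 0.00022 and 0.000209) and Diablo (0.66 and 0.57, limma, adjusted p = 0.0159 and 0.0177) were among them both times. The 5 calls of the BRCA1 model, where model and scan date cannot be told apart, fell to 2 with slide and 0 with scan date. Map3k14 in the p53 transplants was called with scan date and not with slide (limma, adjusted p = 0.068).

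The gene names outside chromosome 9 whose order over the 45 tumors was most like that of the 5 named probes were Flrt2, Ppp2r5c, AW555464, Adssl1 and Dio2, with Spearman rho of 0.60 to 0.64 among 18494 names. All 5 lie on chromosome 12, with 2 probes each. In Wnt_4635 they read -0.18 to 0.12.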

How the data were processed

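Array comparative genomic hybridization data of 45 mouse mammary tumors, 1 array each, were grouped by the model in the sample labels. The authors extracted the images with Agilent Feature Extraction (version 9.5.1.1 in the file headers, 10.7 in the submitters' processing notes) and deposited, for each spot, background-subtracted and dye-normalized intensity values and their log10 ratio of Cy5 over Cy3. A further table deposited by the authors holds intervals called in each tumor by the ADM-2 algorithm, with a mean log2 ratio each, which served here for the direction of the dyes and as an alternative. The authors' tables for single models and the column of interval p-values hold their own comparisons and were not used.

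The log10 ratios were turned to log2 of Cy3 over Cy5, outlier and control spots were left out, spots of 1 probe were averaged, and each array was centred on its autosomal median. Circular binary segmentation (Python 3.11.15, numpy 2.4.6, numba 0.67.0) split where the statistic passed 6, kept segments to 5 probes or more, and took gains from a mean of 0.2. limma 3.58.1 in R 4.3.3 was fitted over 40666 autosomal probes with the 8 models as groups and tested at 0.05 after Benjamini-Hochberg adjustment. Both were tested on simulated data. Shares of tumors have exact Clopper-Pearson 95% intervals (scipy 1.17.1). Names were updated through RefSeq (GRCm38.p6, names and order only), with 31 of 41 proximal gene names matched, 1 of them through its clone.

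The genes named are the members, those inside the amplified region and beside its borders, fixed lists of proximal chromosome 9 genes, Hippo and inhibitor of apoptosis genes that were called or reached a mean of 1, and the 5 names most like the locus by Spearman rho. The members, lists and tests were chosen with earlier results of these data known. Alternatives changed the centre, normexp background correction (offset 50), loess, dim and outlier spots, segmentation and its thresholds, dyes, doubtful arrays, blocks, array weights, gene means and 1 Mb bins, and left out each tumor in turn. Probe sequences and a genome of this build were not used here.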

Additional observations from a re-analysis of the deposited data

Results flagged for a closer look

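Of 56 combinations of a quantity and a model, 7 held a tumor far from the others of its model by Dixon's criterion, and all 7 were Wnt_4635 among the MMTV-Wnt1 tumors (n = 5). About 1 in 20 groups is marked by chance, and these quantities are not independent. Its value was the highest for Birc3 (2.55), Yap1 (2.49), AK021182 (2.48), the mean of the 5 named probes (2.52), the excess of that mean over the rest of chromosome 9 (2.67) and the mean of the matrix metalloproteinase genes (3.60). It was the lowest for chromosome 9 beyond 12 Mb (-0.15).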

How the results depend on the processing

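Of 337 alternative values, 315 kept their side of the threshold, stayed within 1.5 times a count or length, or, for levels and the excess, moved by less than 1 SD. That SD is 1.16 for MMTV-Wnt1, so its level of 0.45 counts as unmoved at -0.45 with the dyes as labelled, 0.025 with normexp and -0.068 without Wnt_4635. With the dyes as labelled the level of each other model also turns its sign. The remaining values follow, and the cause was not tested. With the dyes as labelled, 4 tumors were gained and 0 amplified, the mean level was 0.093 in MMTV-H-Ras and -0.12 in p53fl/fl;MMTV-cre transplant, and the excess of Wnt_4635 was -2.67. With normexp 0 tumors were amplified, that excess was 0.45, the F test called 5146 autosomal probes in place of 7720, and 2 named probes were called in the p53 transplants. By the authors' intervals 6 tumors were gained. Without Wnt_4635, chosen after seeing the data for the counts of tumors, 1 was gained and 0 amplified, and 1 named probe was called both by the F test and in the p53 transplants. With only probes well above background 1 named probe was called in the p53 transplants. The F test called 3992 probes without the 4 arrays of nearly the same profile, 2272 with slide as a random block, 1971 with scan date as a random block (added after seeing the data) and 15160 with array weights, which also called 1 named probe in MMTV-Wnt1. Leaving out each of the 6 p53 transplants in turn gave 0 to 1 named probes in that model, the 1 without P53_1573 or P53_5851. Slide and scan date as fixed blocks over 8 models could not be fitted, and leaving out the amplified tumor left no region to measure. The segment means and the fixed scan date block over 7 models were also added after seeing the data. No paired analysis was possible because replicate numbers only name the tumors of a model in order. The 5 named probes, their noise and 5 to 9 arrays a model limit what small differences could be seen.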
